A study of Mus musculus with 6 samples.

Results

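The genes of the mitochondrial ribosomal proteins were taken as every protein-coding gene of the deposited count table whose mouse symbol is Mrpl or Mrps followed by a number. The rule gave 78 genes of the 54838 in the table, 49 with an Mrpl symbol and 29 with an Mrps symbol. They lie on 17 chromosomes. By their place in the known mammalian mitoribosome, 51 encode a protein of the large subunit, 26 a protein of the small subunit and 1, Mrps36, encodes KGD4, which belongs to the oxoglutarate dehydrogenase complex in spite of its symbol.

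Mitochondria translate the few mRNAs of their own genome, which encode core subunits of the respiratory chain and of ATP synthase, on a ribosome separate from the cytosolic one. The RNA of this mitoribosome is transcribed from mitochondrial DNA, while its proteins are encoded in the nucleus, made in the cytosol and imported. Some of the proteins descend from bacterial ribosomal proteins and others exist only in mitochondria, and the large subunit is anchored at the inner membrane, where the respiratory chain is assembled.

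The RNAseq libraries came from hippocampi of female FVB/NJ mice aged 7 months. There were 3 wild-type mice and 3 Tg(ORAI1)Ibd mice, each giving 1 hippocampal library. The transgene carries the coding sequence of human ORAI1, the pore protein of store-operated calcium entry, in a mouse Thy-1.2 cassette that drives expression in neurons. The comparison asks which hippocampal transcripts differ with neuronal overexpression of ORAI1. Total counts per library ran from 37414241 to 52497799, and the members held 74579 to 101884 of them. Orai1 stood at 313 to 331 CPM (counts scaled by the trimmed mean of M-values, TMM, and to a common library size) in the mice labelled Tg(ORAI1)Ibd and at 7.16 to 8.08 CPM in wild-type mice. The neuronal markers Camk2a and Neurod6, genes of excitatory hippocampal neurons, were present at means of 3621 and 195 CPM in wild-type. Markers of the choroid plexus, the epithelium beside the hippocampus that secretes cerebrospinal fluid, moved with genotype. All 18 such genes had a log2 fold change below 0 in Tg(ORAI1)Ibd over wild-type. At an adjusted p under 0.05 (edgeR's quasi-likelihood test) 16 were lower, where the share over all genes tested was 4.00%. The summed level of the list ran from 2584 to 4538 CPM in wild-type and from 311 to 509 CPM in Tg(ORAI1)Ibd, and none of the 18 was at 0. The part of the choroid plexus in the results on the members was not tested. In whole tissue, fewer cells of a type and less RNA per cell cannot be told apart.

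The members with an adjusted p under 0.05 (edgeR's quasi-likelihood test, Benjamini-Hochberg over the 19087 genes tested) were 5, and their promoters are shown here because they passed. These 5 calls were not stable across settings, as given below. Each sequence is from RefSeq (GRCm38.p6), reads 5′ to 3′ in the direction of the gene and ends just before the more upstream of the RefSeq and the GENCODE transcript start. Capitals mark whole matches, on either strand, to the letters of 3 motifs: CGCANGCG, the core bound by NRF-1, a regulator of nuclear genes for mitochondria, CCGGAAG, bound by ETS factors such as GABP, and AAGATGGCG, bound by YY1.
Mrpl28, chr17:26123340-26123499, plus strand: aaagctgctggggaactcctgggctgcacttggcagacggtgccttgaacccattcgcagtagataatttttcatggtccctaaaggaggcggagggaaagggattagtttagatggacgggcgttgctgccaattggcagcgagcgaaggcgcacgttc
Mrps26, chr2:130563582-130563741, plus strand: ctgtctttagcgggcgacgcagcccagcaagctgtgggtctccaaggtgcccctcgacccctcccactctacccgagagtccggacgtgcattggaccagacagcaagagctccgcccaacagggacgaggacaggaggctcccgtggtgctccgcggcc
Mrps27, chr13:99344626-99344785, plus strand: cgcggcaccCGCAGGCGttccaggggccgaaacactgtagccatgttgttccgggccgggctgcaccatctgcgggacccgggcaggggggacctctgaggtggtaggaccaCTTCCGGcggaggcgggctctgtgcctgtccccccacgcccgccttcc
Mrps18a, chr17:46110826-46110985, plus strand: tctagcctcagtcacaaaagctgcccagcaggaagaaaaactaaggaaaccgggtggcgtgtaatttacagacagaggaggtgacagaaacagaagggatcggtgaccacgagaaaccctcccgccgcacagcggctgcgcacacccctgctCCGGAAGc
Mrps6, chr16:92058110-92058269, plus strand: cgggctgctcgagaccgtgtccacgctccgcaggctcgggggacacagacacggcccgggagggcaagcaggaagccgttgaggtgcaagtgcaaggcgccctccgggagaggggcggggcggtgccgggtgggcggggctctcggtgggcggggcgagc

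Mrps27 had an NRF-1 core beginning 151 bases and an ETS match beginning 48 bases upstream of its RefSeq start, and a YY1 match beginning 14 bases past the start. All 3 motifs were found together in this 1 member window and in 17 of the 16527 windows of all protein-coding genes. In Mrps18a the ETS match began 26 bases upstream of the start and a YY1 match 11 bases past it. The Mrps26 window held an ETS match 14 bases upstream and NRF-1 cores 1 base upstream and 5 bases past its RefSeq start, which lie outside the stretch shown. The windows of Mrpl28 and Mrps6 held none of the 3. A RefSeq window of 300 bases, from 250 before to 50 after the start, was found for 69 of the 78 members, and in 64 of them bases after the start were found in a GENCODE transcript of the same gene. The NRF-1 core was in 20 of the 69 windows (29.0%), in 11.9% of all protein-coding windows and in 15.9% of the windows of genes tested. The ETS letters were in 24 (34.8%), in 12.3% of all and in 16.1% of those of genes tested. The YY1 letters were in 8 (11.6%), in 2.04% of all and in 2.74% of those of genes tested. At least 1 of the 3 was in 42 member windows (60.9%) against 23.2% of all protein-coding windows and 30.5% of the windows of genes tested, and matches of different motifs overlapped in no member window. The median GC content of the window was 58.3% for the members and 60.7% for the genes tested. These are matches of letters and are given as a description, with no test.

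Expressed as FPKM, fragments scaled to the summed exon length of the gene in kilobases and to the assigned counts of the library, the mean level of a member over the 6 libraries had a median of 9.79 over the 78 members, and the range from the 10th to the 90th percentile was 3.76 to 22.9. Of the 78 members, 59 lay between 5 and 25 FPKM. The large-subunit genes had a median of 9.99 FPKM (n = 51) and the small-subunit genes of 9.22 FPKM (n = 26). The order of the members was nearly the same in both genotypes, with a Spearman rho of 0.987 across the genes between the genotype means. This is a description across genes, which share libraries and gene lengths.

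The highest levels belonged to Mrps21, a small-subunit protein with a bacterial counterpart, Mrpl41, a large-subunit protein found only in mitochondria, and Mrpl10, a protein of the large subunit that anchors the stalk where translation factors bind. Mrps21 measured 32.1, 34.0 and 34.7 FPKM in the wild-type libraries and 37.7, 38.2 and 35.4 FPKM in the Tg(ORAI1)Ibd libraries. Mrpl41 measured 32.1, 33.9 and 34.0 FPKM in wild-type and 38.0, 36.2 and 34.5 FPKM in Tg(ORAI1)Ibd. Both genes had each Tg(ORAI1)Ibd library above each wild-type library, and their means over 6 libraries, 35.3 and 34.8 FPKM, differed by less than the spread of either between mice. Mrpl10 followed at 25.8, 27.0 and 27.2 FPKM in wild-type and 27.8, 28.8 and 26.8 FPKM in Tg(ORAI1)Ibd, with genotypes that overlapped.

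At the low end, Mrpl53, a large-subunit protein found only in mitochondria, had 5, 1 and 3 counts in wild-type and 3, 4 and 1 counts in Tg(ORAI1)Ibd. It was the 1 member below the filter on low counts and was not tested. In the annotation 88.0% of its exonic bases are shared with Gm42688 on the same strand, and fragments that fall on both genes are assigned to neither by the counting program's default. The part of this overlap in the low count was not tested. Next came Mrpl33 at 2.32 to 2.59 FPKM and Mrps35 at 2.41 to 2.75 FPKM over all 6 libraries. The ranges overlapped, but Mrps35 was above Mrpl33 within each library. Mrpl33, a small protein of the large subunit, has 7326 bases of summed exon length but a longest coding transcript of 478 bases, so its level depends on the length chosen. Per kilobase of the longest coding transcript it stood at 36.8 FPKM and ranked 7 of 78, in place of 77 by summed exon length. By that length the median over the members was 16.3 FPKM and the 3 highest were Mrps21 at 53.5, Mrpl20 at 53.4 and Mrpl42 at 42.6 FPKM. The rank correlation between both measures across the members was 0.651.

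**Figure D1:**
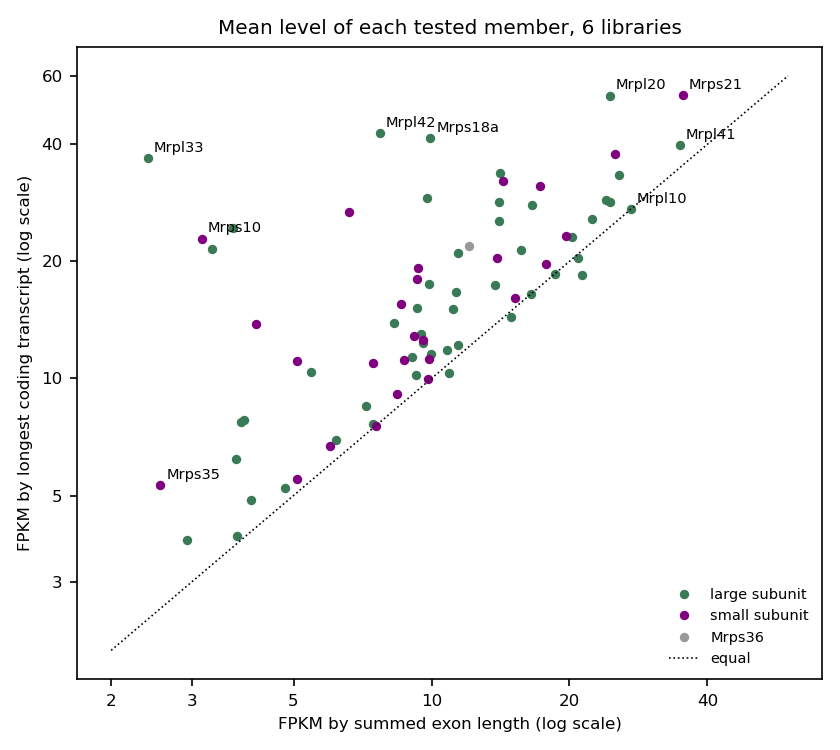
Mean FPKM over the 6 libraries of the 77 tested members, per kilobase of summed exon length (x axis, log scale) and of the longest coding transcript (y axis, log scale), with the dotted line marking equal values and colours marking the subunit. Mrps21 is at or near the top on both axes, while Mrpl33, Mrps10 and Mrpl42 lie far above the line.

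Across genotypes, the members as a group sat slightly higher in Tg(ORAI1)Ibd. Their share of the assigned counts was 0.194% to 0.200% in wild-type and 0.207% to 0.216% in Tg(ORAI1)Ibd, so that the genotypes did not overlap. Summed over the large subunit, the level was 1273, 1308 and 1292 CPM in wild-type and 1423, 1345 and 1359 CPM in Tg(ORAI1)Ibd. Summed over the small subunit it was 659, 672 and 663 CPM in wild-type and 736, 709 and 696 CPM in Tg(ORAI1)Ibd. Both sums were above the wild-type range in each Tg(ORAI1)Ibd library, and were highest in replicate 1, which also had the highest level of 43 of the 77 tested members.

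Of the 77 tested members, 5 passed in the direction of Tg(ORAI1)Ibd, which is 6.49% of them against 3.10% of all genes tested. None passed in the other direction, where the share over all genes was 4.00% in the same edgeR fit. DESeq2's Wald test and limma-voom also gave 0 members lower. At an unadjusted p under 0.05, 23 members were higher (29.9%, against 13.0% of all genes) and 0 were lower (against 14.8%). The log2 fold change, Tg(ORAI1)Ibd over wild-type, was above 0 for 67 of the 77 and had a median of 0.09, beside -0.01 over all genes tested. In 32 members each Tg(ORAI1)Ibd library was above each wild-type library, which is 41.6% against 16.9% of all genes, in 0 members each was below (against 17.9%), and in 45 the genotypes overlapped. The changes were small, since none of the 77 exceeded 0.3 in absolute log2 fold change.

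**Figure D2:**
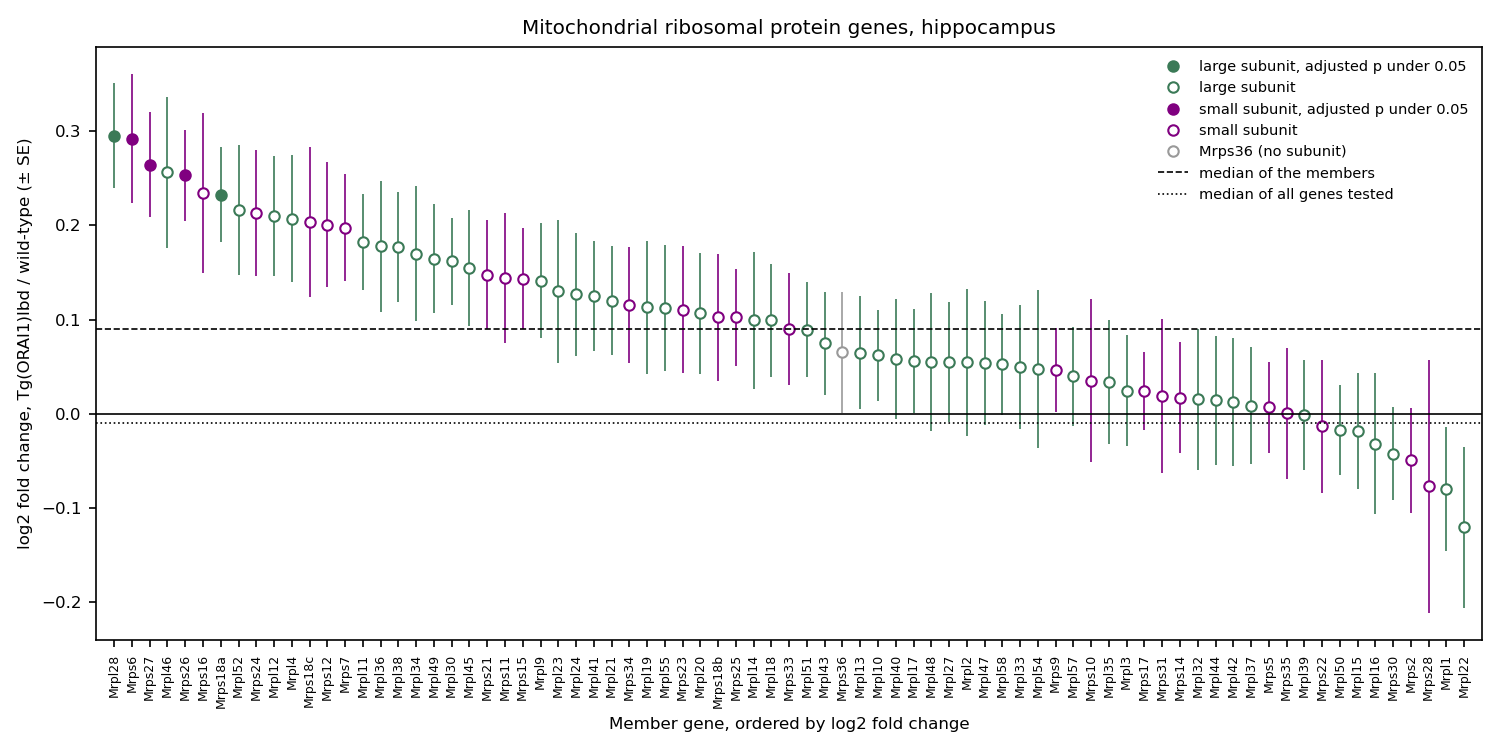
Log2 fold change with its standard error (bars) of each of the 77 tested members, ordered by size, 3 libraries per genotype, with filled points for an adjusted p under 0.05, colours for the subunit, and lines at the medians of the members (dashed) and of all genes tested (dotted). The values run from 0.30 for Mrpl28 to -0.12 for Mrpl22, and the 5 filled points lie among the 7 largest.

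The 5 members were Mrpl28, Mrps26, Mrps27, Mrps18a and Mrps6, and their estimated folds lay between 1.17 and 1.23. Mrpl28 (ENSMUSG00000024181, chr17:26123500-26126613, plus strand, GRCm38) encodes a large-subunit protein with a bacterial counterpart. It measured 26.2, 28.2 and 28.2 CPM in the wild-type libraries and 33.6, 32.7 and 35.0 CPM in the Tg(ORAI1)Ibd libraries. The groups were well apart, and the log2 fold change was 0.30 with a standard error of 0.06 and an adjusted p of 0.0301.

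Mrps26 and Mrps27 encode small-subunit proteins that have no bacterial counterpart, and Mrps27 belongs to the pentatricopeptide repeat family of RNA-binding proteins. Mrps26 (chr2:130563742-130568695, plus strand) measured 37.8, 38.9 and 40.4 CPM in wild-type and 47.5, 46.7 and 45.3 CPM in Tg(ORAI1)Ibd. Its log2 fold change was 0.25 with a standard error of 0.05 and an adjusted p of 0.0313. Mrps27 (chr13:99344786-99415562, plus strand) measured 18.8, 19.4 and 18.2 CPM in wild-type and 23.1, 22.6 and 22.1 CPM in Tg(ORAI1)Ibd. The lowest Tg(ORAI1)Ibd library was above the highest wild-type library in both genes, and the log2 fold change of Mrps27 was 0.26 with a standard error of 0.06 and an adjusted p of 0.0384.

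Mrps6 encodes a small-subunit protein with a bacterial counterpart (chr16:92058270-92112227, plus strand). It measured 11.6, 12.4 and 11.5 CPM in wild-type and 15.0, 14.0 and 14.4 CPM in Tg(ORAI1)Ibd, without overlap. The log2 fold change was 0.29 with a standard error of 0.07 and an adjusted p of 0.0477, the closest of the 5 to the threshold. Of its exonic bases 19.9% are shared on the same strand with Slc5a3, a myo-inositol transporter gene inside the Mrps6 locus, or with Gm49711. Of the other members, 7 share exonic bases with another gene on their strand, Mrpl53 among them.

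**Figure D3:**
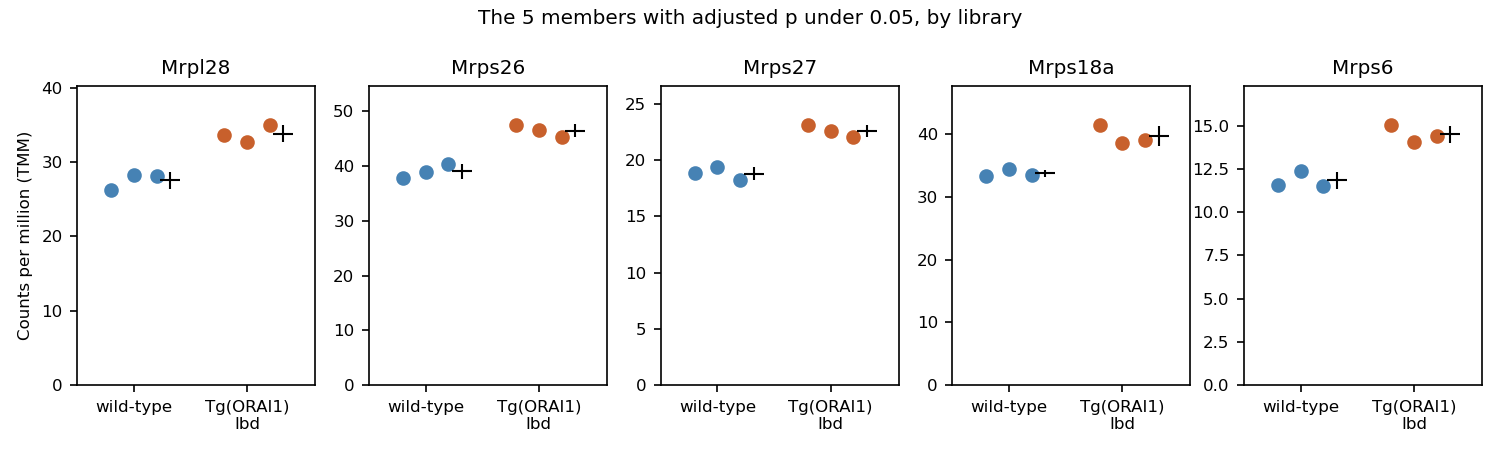
Level of the 5 members with an adjusted p under 0.05 in each library, in CPM after TMM scaling, with axes from 0, dots for the 3 mice of each genotype, and a dash with a bar for the mean and SD. In each panel the 3 Tg(ORAI1)Ibd dots sit above the 3 wild-type dots.

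Mrps18a has a pair of paralogues, Mrps18b and Mrps18c, all related to the bacterial protein S18. Structures of the mammalian mitoribosome place Mrps18a in the large subunit and Mrps18b and Mrps18c at different sites of the small subunit. Mrps18a measured 33.3, 34.4 and 33.6 CPM in wild-type and 41.4, 38.5 and 39.0 CPM in Tg(ORAI1)Ibd, without overlap. Its log2 fold change was 0.23 with a standard error of 0.05 and an adjusted p of 0.0406. Mrps18c measured 9.46, 9.19 and 10.1 CPM in wild-type and 11.2, 11.5 and 10.4 CPM in Tg(ORAI1)Ibd. These groups did not overlap either, but the log2 fold change of 0.20 had a standard error of 0.08 and an adjusted p of 0.146. Mrps18b measured 18.2, 19.7 and 18.2 CPM in wild-type and 21.1, 18.9 and 20.2 CPM in Tg(ORAI1)Ibd, with overlap, a log2 fold change of 0.10 and an adjusted p of 0.365. Whether the 3 paralogues differed in their change was not tested. The full windows of all 3 paralogues hold an ETS match. It lies upstream of the RefSeq start in Mrps18a and, on the other strand, in Mrps18c, and in Mrps18b it begins 43 bases past the start, on the other strand and outside the stretch shown. The Mrps18b window also holds an NRF-1 core beginning 224 bases upstream of the start.
Mrps18b, chr17:35916441-35916600, minus strand: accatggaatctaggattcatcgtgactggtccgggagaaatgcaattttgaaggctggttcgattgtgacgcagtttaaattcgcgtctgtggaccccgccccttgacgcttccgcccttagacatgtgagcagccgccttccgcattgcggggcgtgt
Mrps18c, chr5:100798509-100798626, plus strand: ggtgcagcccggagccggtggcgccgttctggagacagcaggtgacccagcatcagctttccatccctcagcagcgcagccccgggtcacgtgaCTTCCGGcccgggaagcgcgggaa

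By subunit, 43 of 50 tested large-subunit genes and 23 of 26 small-subunit genes had a log2 fold change above 0, with medians of 0.07 and 0.11. The large subunit held 2 of the 5 that passed and the small subunit 3. Genes whose proteins have a bacterial counterpart had a median of 0.10 (n = 46) and those of proteins found only in mitochondria a median of 0.07 (n = 28), with 2 that passed in each class. Mrps30, in the large subunit despite its symbol, measured 27.0, 25.9 and 26.1 CPM in wild-type and 25.6, 25.9 and 25.3 CPM in Tg(ORAI1)Ibd, and the genotypes overlapped. Mrps36 measured 14.7, 15.7 and 14.7 CPM in wild-type and 16.3, 15.5 and 15.3 CPM in Tg(ORAI1)Ibd, with a log2 fold change of 0.07 and an adjusted p of 0.556.

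Of the members that did not pass, the largest differences were in Mrpl46, Mrps16 and Mrpl52. Mrpl46, a large-subunit protein found only in mitochondria, measured 11.8, 11.4 and 11.9 CPM in wild-type and 15.3, 13.4 and 13.2 CPM in Tg(ORAI1)Ibd, without overlap. The log2 fold change was 0.26 with a standard error of 0.08 and an adjusted p of 0.0904. Mrpl52 was without overlap too, at 14.6, 14.2 and 14.6 CPM in wild-type and 18.0, 15.8 and 16.6 CPM in Tg(ORAI1)Ibd, with an adjusted p of 0.0957. In Mrps16, a small-subunit protein with a bacterial counterpart, the groups overlapped at 14.8, 17.3 and 15.5 CPM in wild-type and 19.9, 17.2 and 18.8 CPM in Tg(ORAI1)Ibd, with an adjusted p of 0.125. The lowest of the 10 values below 0 was that of Mrpl22, named here after its value was seen, a large-subunit protein near the exit of the nascent chain. It measured 11.8, 11.2 and 11.2 CPM in wild-type and 11.5, 9.99 and 9.91 CPM in Tg(ORAI1)Ibd, with overlap, a log2 fold change of -0.12 and an adjusted p of 0.399.

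Between mice of a genotype the members varied little. The median SD of log2 CPM within genotypes was 0.066 over the tested members, against 0.090 over the 7629 tested genes in the same range of mean level. The steadiest were Mrps17, Mrps9 and Mrps30, with SDs of 0.021, 0.022 and 0.027. Mrps17, a small-subunit protein that binds ribosomal RNA in bacteria, measured 57.1, 56.2 and 55.2 CPM in wild-type and 57.8, 57.1 and 56.5 CPM in Tg(ORAI1)Ibd. Mrps9 measured 38.1, 37.2 and 36.9 CPM in wild-type and 38.1, 39.2 and 38.6 CPM in Tg(ORAI1)Ibd, groups that do not overlap but all but touch. The most variable were Mrps28, Mrps10 and Mrps16, with SDs of 0.169, 0.122 and 0.110, and Mrps28 was also the tested member with the fewest counts, 193 to 302 per library. Its values were 5.77, 6.94 and 5.52 CPM in wild-type and 6.47, 5.63 and 5.15 CPM in Tg(ORAI1)Ibd. Those of Mrps10 were 26.8, 25.6 and 23.0 CPM in wild-type and 28.4, 25.1 and 23.8 CPM in Tg(ORAI1)Ibd, and the genotypes overlapped in both genes.

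The difference of the members rose with the GC content of their exons. The tested members were divided into 3 bins by GC content. In the lowest bin, 40.2% to 48.9%, the median log2 fold change was 0.03 (n = 25), in the middle bin it was 0.06 (n = 27), and in the highest bin, 53.8% to 62.2%, it was 0.14 (n = 25). All tested genes in the same ranges of GC content had medians of -0.09, 0.02 and 0.10. Across the 77 members, which share the libraries, Spearman's rho of the log2 fold change with GC content was 0.51 and with summed exon length -0.34. With offsets for GC content in the fit, 1 member passed (Mrps27), with offsets for gene length 1 passed (Mrps26), and with both 0 passed, while the member median stayed between 0.08 and 0.10. With both offsets the log2 fold change of Mrpl28 fell from 0.30 to 0.16 (adjusted p of 0.162, edgeR's quasi-likelihood test), and those of the other 4 called members lay between 0.17 and 0.30.

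**Figure D4:**
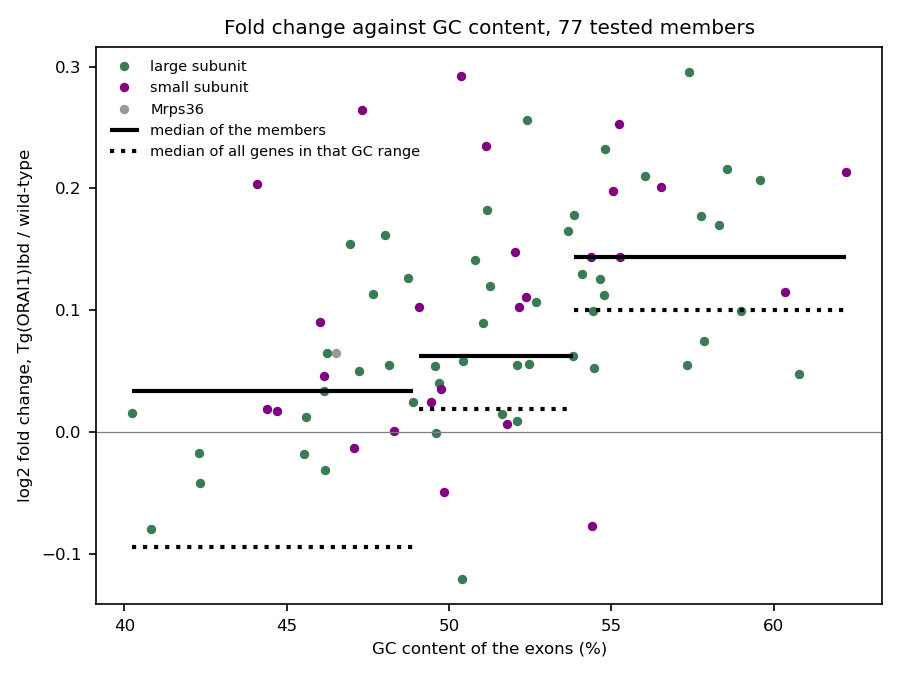
Log2 fold change of the 77 tested members (y axis) against the GC content of their exons in percent (x axis), coloured by subunit, with solid bars for the member median in each of 3 bins by GC content and dotted bars for the median of all tested genes in that GC range. Both medians rise from left to right, to 0.14 and 0.10 in the highest bin, and the solid bar is above the dotted one in each.

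Many members start back to back with another gene. An annotated start of a protein-coding gene on the other strand lay within 1000 bases upstream, or overlapped the member's start by up to 100 bases, for 19 of the 77 tested members (24.7%) and for 9.66% of the 15263 protein-coding genes tested, at a median distance of 81 bases for the members. The members Mrpl46 (minus strand, start at chr7:78783531) and Mrps11 (plus strand, start at chr7:78783119) overlap by more than 100 bases and are not counted in the 19. Mrps27 starts 81 bases from Ptcd2, a pentatricopeptide repeat protein of mitochondrial RNA maturation, whose log2 fold change was 0.12 with an adjusted p of 0.152. Mrps12, a small-subunit protein of the decoding centre, starts 172 bases from Sars2, the mitochondrial seryl-tRNA synthetase, and their log2 fold changes were 0.20 and -0.02, neither of which passed. Of the 19 partners, 1 passed the test, a count near the 3.10% higher and 4.00% lower over all genes tested. It was Fau, a precursor of a cytosolic ribosomal protein, at a log2 fold change of 0.34 and an adjusted p of 0.0271. With GC offsets Fau stood at 0.25 (adjusted p of 0.0719) and with GC and length offsets at 0.17 (adjusted p of 0.125). Its partner Mrpl49 stood at 0.16 with an adjusted p of 0.118. At an unadjusted p under 0.05 by edgeR's quasi-likelihood test, the partners Klc4, Hira, Fau, Apba3, Ptcd2 and Eme2 were higher in Tg(ORAI1)Ibd. At that threshold the shares over all genes tested were 13.0% higher and 14.8% lower.

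The counts of calls in the lists of the rest of the mitochondrial translation system are to be read against 3.10% higher and 4.00% lower over all genes tested, or 13.0% and 14.8% at an unadjusted p under 0.05, and lists this short hold few calls at such shares. Of 5 mitoribosomal proteins under other symbols 0 passed by edgeR, DESeq2's Wald test or limma-voom, while 4 had an unadjusted p under 0.05. Gadd45gip1, a large-subunit protein, had the largest log2 fold change of them, 0.22, with an adjusted p of 0.110. Ptcd3, a small-subunit protein, had the lowest at -0.11 with an adjusted p of 0.148. Of 25 assembly factors and 16 translation factors 0 passed in either list by edgeR or limma-voom, 1 in each was lower by DESeq2's Wald test, 1 translation factor was lower with no filter on low counts, 4 and 2 had an unadjusted p under 0.05 by edgeR, and median log2 fold changes were 0.04 and 0.05. Of the 17 mitochondrial aminoacyl-tRNA synthetases 1 passed, Lars2, which charges the leucine tRNA. It measured 91.1, 129 and 123 CPM in wild-type and 243, 184 and 216 CPM in Tg(ORAI1)Ibd, with a log2 fold change of 0.91, a standard error of 0.15 and an adjusted p of 0.0213. It lost its call without wild-type replicate 1 (adjusted p of 0.0710), wild-type replicate 2 (0.0704) or Tg(ORAI1)Ibd replicate 3 (0.0766). No synthetase was lower by edgeR or limma-voom at the adjusted threshold, while 3 were at an unadjusted p under 0.05, 2 were by DESeq2's Wald test, and 1 was with total counts, with no filter on low counts and without wild-type replicate 3.

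Among 21 genes of mitochondrial RNA synthesis and processing, 2 were higher and 0 lower, with a list median of -0.04. Slirp, a partner of Lrpprc in stabilising mitochondrial mRNA, measured 26.0, 26.2 and 26.9 CPM in wild-type and 32.3, 30.2 and 30.9 CPM in Tg(ORAI1)Ibd, with an adjusted p of 0.0388. Fastkd5, needed for maturation of some mitochondrial transcripts, measured 3.38, 3.32 and 3.25 CPM in wild-type and 4.87, 4.74 and 4.22 CPM in Tg(ORAI1)Ibd, with an adjusted p of 0.0477. Both calls were lost with no filter on low counts (adjusted p of 0.0523 for Slirp and 0.0623 for Fastkd5), with length offsets (0.0701 and 0.0673), with GC and length offsets (0.0516 and 0.0598) and without any 1 of the 6 mice, and that of Fastkd5 with GC offsets (0.0516). Among 9 regulators of mitochondrial genes 1 was lower, Ppargc1a, a coactivator of mitochondrial biogenesis, and 0 were higher. It measured 60.6, 56.0 and 54.4 CPM in wild-type and 45.1, 46.4 and 47.8 CPM in Tg(ORAI1)Ibd, without overlap, and its log2 fold change was -0.30 with an adjusted p of 0.0291. The call was lost with GC offsets (-0.22, adjusted p of 0.0830), length offsets (-0.24, 0.0529) and both (-0.19, 0.0952). It was lost also without wild-type replicate 1 or 2 or Tg(ORAI1)Ibd replicate 2 or 3, with adjusted p between 0.0911 and 0.130. For comparison, of 81 genes with a cytosolic ribosomal protein symbol 59 were higher and 0 lower in the reported fit, with a median log2 fold change of 0.25. The 59 calls cannot hold in each fit with 1 mouse left out. Over all genes tested, 11 were higher without wild-type replicate 1, 13 without wild-type replicate 2 and 19 without Tg(ORAI1)Ibd replicate 3. The 37 genes of the mitochondrial genome, its ribosomal RNAs included, are listed at 0 in all 6 libraries, so the RNA that these proteins bind could not be set beside them.

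The 5 calls were not stable across settings. With no filter on low counts 2 passed, Mrpl28 and Mrps26, while the adjusted p by edgeR's quasi-likelihood test was 0.0546 for Mrps27, 0.0534 for Mrps18a and 0.0687 for Mrps6. With 1 of the 6 mice left out, 0 to 2 members passed: 2, Mrpl28 and Mrps26, without wild-type replicate 3 or Tg(ORAI1)Ibd replicate 1, and 0 without any of the other 4 mice. The member median ran from 0.06, without Tg(ORAI1)Ibd replicate 1, to 0.13, without Tg(ORAI1)Ibd replicate 2. It was above that of all genes tested in each fit.

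**Figure D5:**
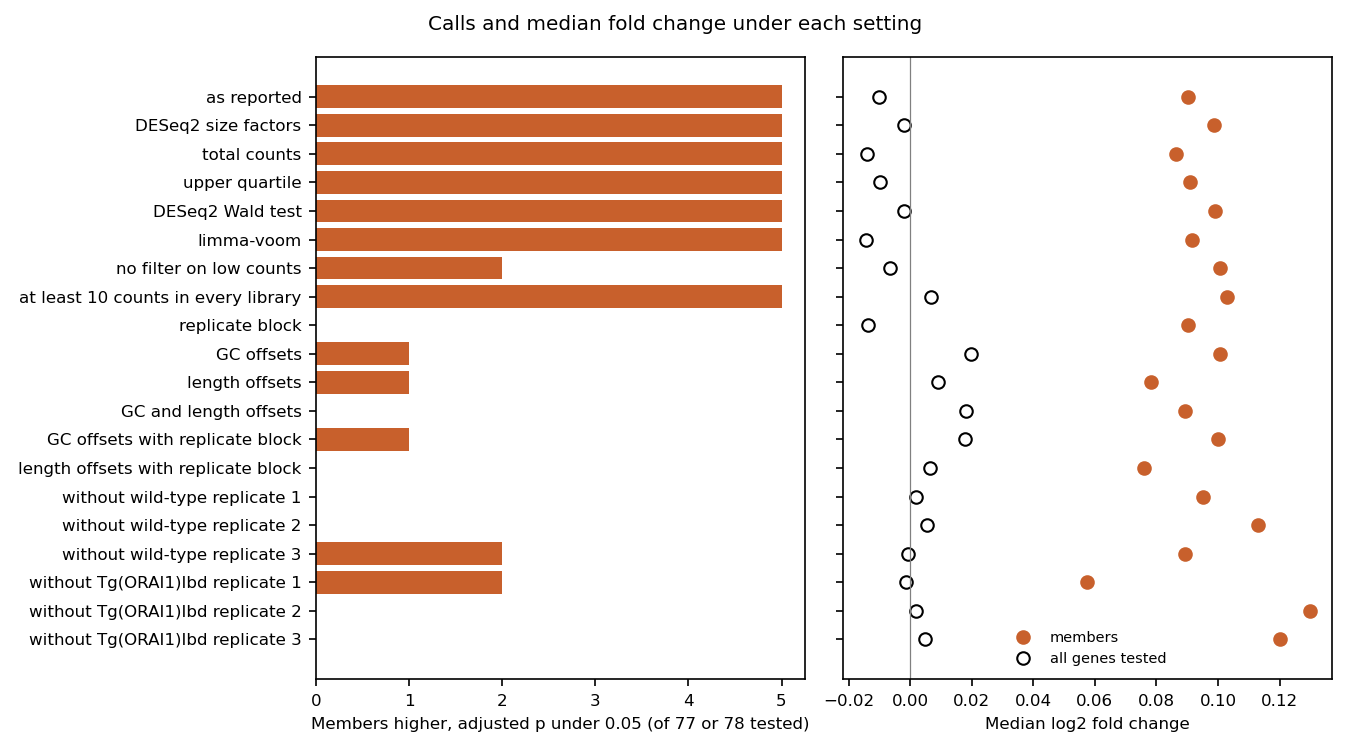
Number of members higher in Tg(ORAI1)Ibd at an adjusted p under 0.05 (left, bars from 0) and median log2 fold change (right) of the members (filled) and of all genes tested (open) in the reported fit and each alternative. The count is 5 under the alternative scalings and tests and with at least 10 counts in every library, and 0, 1 or 2 in the remaining settings, while each filled point lies to the right of its open one.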

How the data were processed

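Hippocampal RNA of 6 female mice, 3 of each genotype, was sequenced on an Illumina instrument. Per the file header and the study's methods, the authors filtered reads with Trimmomatic, aligned them to mm10 with STAR and counted fragments with featureCounts 1.5.0-p1 on Ensembl annotation of GRCm38, strand setting 2, primary alignments with a mapping quality of at least 3. They deposited raw counts per gene for 6 libraries. Genotypes are from the labels, and each library is a separate mouse.

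From these counts, genes were kept by filterByExpr with a minimum count of 10 (19087 genes), scaled by TMM and tested with edgeR 4.0.16's quasi-likelihood test (R 4.3.3, limma 3.58.1), with Benjamini-Hochberg adjustment and a threshold of 0.05. The study used NOISeq, which was not used here. Standard errors are the absolute log2 fold change over the square root of the F statistic. CPM uses TMM-scaled totals and FPKM the total assigned counts. With 3 against 3 mice an exact permutation test of 1 value cannot go below 0.1, so p-values rest on the model fitted across all genes. Raw counts are not corrected for GC content, gene length or RNA quality, and a log2 fold change is relative to the scaling. Alternatives were other scalings, DESeq2 1.42.0, limma-voom, other filters, a replicate block, loess offsets (span 0.5) for GC content and gene length, and leaving out each mouse. On simulated counts of this comparison, 200 of 18856 genes were changed by a log2 of 1. The reported fit recovered 70.5% of those 200 genes and called 14 others. The log2 fold changes of the tested members ran only from -0.12 to 0.30, and recovery at such sizes was not tested.

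Members and lists were chosen with earlier results of these data known. Named were members that passed, the 3 highest and 3 lowest by FPKM, the Mrps18 paralogues, the 3 largest differences that did not pass, members below the filter, the 3 most and 3 least variable, Mrps30 and Mrps36, and called genes of the other lists. No column of another sample was present, and the table holds no comparisons by the authors. The result of 1 marker gene is not reported here.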

Additional observations from a re-analysis of the deposited data

How the results depend on the processing

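The count of members higher in Tg(ORAI1)Ibd was 5, and the same 5 genes, with DESeq2 size factors, total counts or the upper quartile in place of TMM, with DESeq2's Wald test, with limma-voom and with at least 10 counts in every library. It was 2 with no filter on low counts (33581 genes tested), 0 with the replicate block, 1 with offsets for GC content, 1 with offsets for gene length, 0 with both, 1 with GC offsets and the replicate block together, and 0 with length offsets and the block, and 0 to 2 with 1 mouse left out. Members lower numbered 0 in each of these. The member median log2 fold change lay between 0.08 and 0.10 with all 6 mice and between 0.057 and 0.130 with 1 left out. Over all genes, counts of higher and lower were 591 and 764 as reported, 1055 and 1175 by DESeq2's Wald test, 263 and 475 with the block, 171 and 261 with GC offsets, 406 and 372 with length offsets, and as few as 11 and 66 without wild-type replicate 1. The deviations of same-numbered mice of both genotypes had correlations of 0.399, -0.357 and 0.388. Their mean was 0.143, against -0.0918 for differently numbered pairs, and 3 pairs cannot decide whether the numbers pair the mice. Under the block Slirp, Fastkd5 and Ppargc1a had adjusted p of 0.0749, 0.0757 and 0.0547, while Lars2 and Fau stayed under the threshold. With GC or length offsets and the block together, Fau had 0.0549 and 0.0570. Without 1 mouse, Fau passed only in the fits without wild-type replicate 3 or Tg(ORAI1)Ibd replicate 1, and its adjusted p was at most 0.0893.

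Among genes that did not pass, signs turned for Mrps35 with total counts (-0.0036), for Mrps30 with GC offsets (0.120), length offsets (0.019), both (0.145), GC offsets with the block (0.119) and length offsets with the block (0.0191), for Ptcd3 with GC offsets (0.073), both (0.099) and GC offsets with the block (0.071), and for Mrpl10 with both (-0.0218). The causes were not tested. With 1 mouse left out, the lowest and highest log2 fold changes were -0.028 and 0.064 for Mrps35, -0.17 and 0.046 for Mrps28, -0.041 and 0.11 for Mrps10 and -0.00091 and 0.11 for Mrpl33. The FPKM by the longest coding transcript was an alternative chosen after seeing the data. The tested members had 193 to 2990 counts per library, and counting error grows toward the lower end.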

Other observations

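Of 5 features named as processed pseudogenes of members, 4 had counts. Mrpl48-ps had 177 to 223 counts per library in wild-type and 144 to 197 in Tg(ORAI1)Ibd, and Mrpl23-ps1 had 88 to 140 and 105 to 172, while Mrps36-ps3 had 0 in each library. Fragments shared by a gene and its copy cannot be told apart in these counts, a limit on the values of Mrpl48, Mrpl23 and Mrps36.

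In the cell marker lists other than choroid plexus, Neurod2, in a list of 12 hippocampal neuron markers, and Cldn5, of 5 endothelial markers, were higher in Tg(ORAI1)Ibd. The share higher over all genes tested was 3.10%. The hippocampal list had 9 log2 fold changes above 0 and 3 below, the lowest -0.22 for Zbtb20 (adjusted p of 0.0672, edgeR's quasi-likelihood test). The endothelial list had 4 above 0 and 1 below. Of the 6 thalamus, 5 astrocyte, 5 oligodendrocyte and 5 microglia markers 0 passed. The summed astrocyte list ran from 1209 to 1915 CPM in wild-type and from 1199 to 1910 CPM in Tg(ORAI1)Ibd. In these 4 lists in which 0 passed, 1 thalamus marker was lower and 1 microglia marker was higher at an unadjusted p under 0.05 by edgeR's quasi-likelihood test, where the shares over all genes tested were 13.0% higher and 14.8% lower.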
